A study of Mus musculus with 8 samples.

Results

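RNA that came down with a tagged form of the germ cell protein DAZL was compared, gene by gene, with RNA from a mock immunoprecipitation (IP). The cells were mouse primordial germ cells derived in vitro. The comparison set 4 IP arrays against 2 mock arrays, which together are 6 of the 8 arrays of the study, and the arrays were chosen by their sample titles. Of the IP arrays, 2 came from an antibody against V5 (Invitrogen) and 2 from an antibody against GFP (Abcam). The mock IP used normal mouse IgG (Santa Cruz), and the remaining 2 arrays hold total input RNA. All groups, mock and input included, came from V6.5 embryonic stem cells of mixed C57BL/6 and 129SV strain that carried DAZL fused to GFP and V5, so both antibodies bind the same fusion protein. Feeder cells were removed by plating, and the cells were harvested after 12 days in differentiation medium. The lysates were native (no ultraviolet crosslinking), and TRIZOL was used to extract the RNA. The sources used here do not give what drives the fusion, whether the line is a single clone or how the germ cells were selected. The labels describe the V5 and GFP experiments as independent, but do not say that arrays 1 and 2 of a group came from separate cultures, so p-values measure the spread between arrays, which may be technical in part.

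DAZL is a germ cell protein that binds mRNA through an RNA recognition motif, mostly in untranslated regions downstream of the coding sequence. It is best known for promoting translation and stability of its targets through poly(A)-binding protein, and repression of some targets has also been described. Germ cells without DAZL fail to develop normally in both sexes. A native IP recovers RNA bound to the protein together with RNA that joins it during lysis and RNA that sticks to beads or antibody, and the mock IP measures the last of these.

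Each value is the log2 of an array's processed intensity minus that array's 75th percentile. A difference between arrays is therefore relative to the other RNA on each array and is not an amount recovered, so "lower" does not mean that less of an RNA came down than with IgG. The 75th percentile of intensity was 352 on mock 1, 767 on mock 2 and between 641 and 1130 on the 4 IP arrays. Between 61.3% (mock 1) and 67.5% of 41174 probes were well above background on the 6 arrays, and none of the 19020 genes tested was saturated on any array. The first principal component (68.4% of the variance) set the IP arrays apart from the mock arrays, and the second (22.9%) set number 1 of every group apart from number 2. Number 1 lay on slide 1 and number 2 on slide 2, which were scanned apart, per the file headers. Each group took 1 fixed position on either slide, and position and group cannot be told apart. All 10 germ cell marker genes examined, among them Dazl, Ddx4, Dppa3, Prdm1, Nanos3 and Kit, were well above background on all 8 arrays. Of all genes tested, 86.7% were well above background on the 6 IP and mock arrays, and 18545 of 19020 on both input arrays. The marker count therefore cannot tell which cells were present.

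Dazl mRNA, the message of the protein that was pulled down, rose in the DAZL IPs. Its normalized log2 signal was 4.04 and 4.32 on V5 1 and V5 2, 3.90 and 4.63 on GFP 1 and GFP 2, and 1.06 and 2.05 on mock 1 and mock 2. In input it was 2.93 and 2.83. All 4 IP arrays lay above both mock arrays and above both input arrays, while both mock arrays lay below input. The rise over mock IP was 6.37-fold (log2 2.67 ± 0.37 SE, limma adjusted p = 0.0055), and the differences within a replicate number lay between 2.27 and 2.98. A second Dazl probe gave a log2 difference of 3.21. Without mock 1 the difference was 2.18 and did not pass in the fit of the remaining 5 arrays (adjusted p = 0.0892), but it passed when input arrays also set the spread (adjusted p = 0.0209). The sources used here do not say whether the probes also read the message of the fusion.

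Across the array the IPs changed many messages relative to mock IP. By limma with Benjamini-Hochberg adjustment, 2982 of 19020 genes were higher (15.7%) and 4629 lower (24.3%) in the mean of the V5 and GFP groups than in mock IP. With the replicate number as a block, 4181 were higher (22.0%) and 8855 lower (46.6%), and every gene called without the block was also called with it. The higher calls were the larger changes: their median log2 difference was 1.67, against -1.09 for the lower calls. The median over all genes was -0.44, and it was -0.52 within number 1 and -0.35 within number 2. The count of lower calls changes when this offset is removed. With each array centred on the median of the tested genes, 3101 genes were higher and 2014 lower, so that higher genes made up 60.6% of calls instead of 39.2%. That share was 60.7% with the authors' deposited table, 48.7% with the normexp background correction, 42.2% with quantile normalization, 35.8% with all 8 arrays and 32.1% with the block. It was 55.7% with the V5 and GFP arrays of a number averaged and 53.4% with no filter on dim probes.

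The number of calls depended strongly on mock 1. Without it, 0 genes were called in either direction by limma on the remaining 5 arrays, with a smallest adjusted p of 0.0719. At an unadjusted p under 0.05 the counts were then 2667 higher and 3634 lower. When the 2 input arrays were kept in the fit to set the spread, a setting chosen after seeing the data, 1981 genes were higher and 1532 lower without mock 1. These included 1951 of the 2982 higher calls and 1486 of the 4629 lower calls. The lower count also dropped to 1977 without GFP 1 and to 2548 without V5 1, and the higher count was 2361 without mock 2. Below, "the 8-array fit without mock 1" stands for the setting with input, and calls it kept are given for each group of genes.

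The differences within each replicate number gave the check on these calls. In all 4 within-number differences (V5 1 and GFP 1 against mock 1, V5 2 and GFP 2 against mock 2), 1948 genes (10.2%) reached 2-fold higher and 329 (1.73%) reached 2-fold lower. Of the genes called higher, 64.2% were at least 2-fold higher in all 4, but of the genes called lower 6.55% were at least 2-fold lower in all 4. At 4-fold the counts were 428 higher and 3 lower. Number 1 moved further than number 2: on number 1 alone, 3349 genes reached 2-fold higher with both antibodies and 4964 reached 2-fold lower, and on number 2 alone 2035 and 482. The median of the higher calls was 1.99 within number 1 and 1.34 within number 2, and that of the lower calls was -1.37 and -0.79. The dimmer mock array belongs to number 1, and its part in this was not tested. Over genes, which are not independent replicates, the difference of number 1 correlated with that of number 2 with a Pearson coefficient of 0.89 and a Spearman coefficient of 0.87. The IP arrays all lay above both mock arrays for 4072 genes (21.4%) and all below for 8396 (44.1%).

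**Figure D1:**
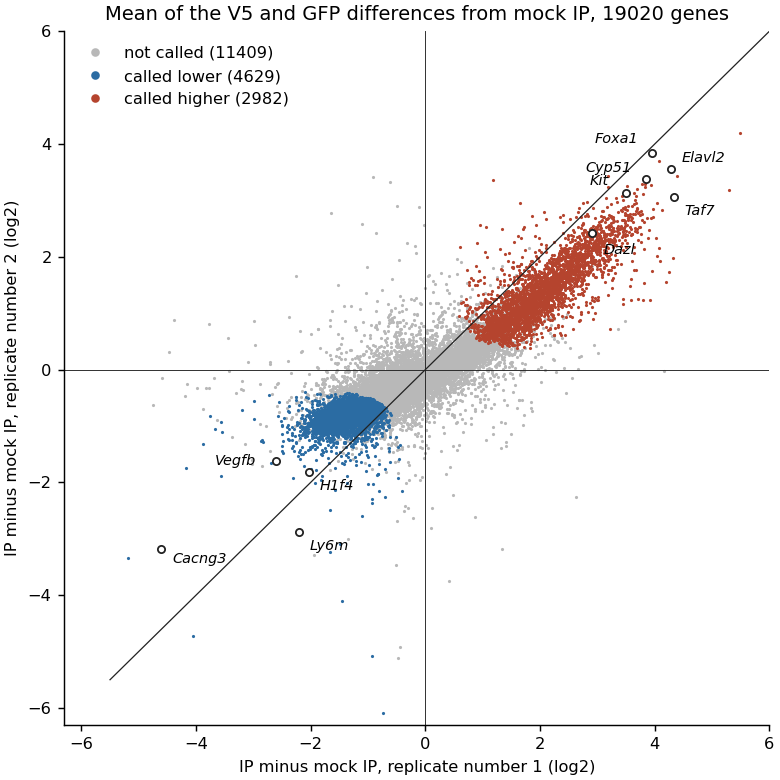
Each point is 1 of 19020 genes: the horizontal axis is the mean log2 difference of V5 1 and GFP 1 from mock 1, the vertical axis that of V5 2 and GFP 2 from mock 2, with genes called higher in red, called lower in blue and equality as the diagonal. Most higher genes lie below the diagonal, since their differences were larger within number 1 (median 1.99) than within number 2 (median 1.34), and the named genes are ringed.

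Elavl2, Cyp51 and Nmt2 led the genes whose difference from mock IP was large in every pair of arrays. The 24 higher genes whose smallest within-number difference was largest were between 7.45-fold and 15.1-fold higher, with limma adjusted p between 0.00333 and 0.00695. All 4 IP arrays lay above both mock arrays for each of them. The genes were ranked by these same differences, so this separation and the small adjusted p follow largely from the choice.

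Elavl2, which encodes a Hu family protein that binds AU-rich mRNA, had the largest smallest difference. Its log2 signal was 5.24 and 5.08 on the V5 arrays, 5.05 and 5.20 on the GFP arrays, 0.87 and 1.58 on the mock arrays and 2.42 and 2.26 in input. It rose 15.1-fold over mock IP (log2 3.92 ± 0.28 SE, limma adjusted p = 0.00333). The IP arrays lay close together and above input, while the mock arrays lay below input. The related Hu gene Elavl4 rose 8.96-fold, from -2.61 and -2.04 on the mock arrays to between 0.66 and 0.99 on the IP arrays.

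Kit, the receptor for stem cell factor on which primordial germ cells depend, read 2.05 and 1.83 on the mock arrays, 5.53 and 4.84 on the V5 arrays and 5.56 and 5.10 on the GFP arrays. Kit thereby rose 9.98-fold (log2 3.32 ± 0.30 SE, limma adjusted p = 0.00333), with mock arrays close to the input values of 2.48 and 2.25. Ccnb1ip1, which encodes the crossover factor HEI10, rose 10.9-fold, with 0.63 and 0.52 on the mock arrays and between 3.52 and 4.47 on the IP arrays. Mageb4, an X-linked gene of the Mage family, rose 9.55-fold.

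Several of the 24 encode enzymes. Cyp51, lanosterol demethylase of cholesterol synthesis, read -0.63 and -0.49 on the mock arrays, 3.20 and 2.79 on the V5 arrays, 3.24 and 2.97 on the GFP arrays and -0.02 and -0.15 in input. It rose 12.2-fold (log2 3.61 ± 0.26 SE, limma adjusted p = 0.00333), and its 3 probes all rose, by between 1.87 and 3.61 on the log2 scale. Nmt2, an N-myristoyltransferase, rose 15.0-fold, Dck, deoxycytidine kinase, 12.1-fold, and Cth, which makes cysteine from cystathionine, 9.33-fold. The number 1 IP arrays of Cth were at 5.04 and 5.16 and the number 2 IP arrays at 3.81 and 3.98, the same order as its mock arrays (1.66 and 0.90).

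Others of the 24 act in transcription, chromatin or protein turnover. Taf7, which belongs to the general transcription factor TFIID, rose 13.0-fold, with its mock arrays at -0.90 and 0.49 and its IP arrays between 3.41 and 3.63. Sap30, which belongs to the Sin3 deacetylase complex, rose 10.4-fold. Phf6, a chromatin protein with PHD-like zinc fingers, rose 8.67-fold by its brightest probe, but only 1 of its 3 probes had this sign and the call ended with the mean of the probes. Anp32e, a histone chaperone for H2A.Z, rose 10.4-fold.

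Rnf138, a ubiquitin ligase, read 2.19 and 3.01 on the mock arrays and between 5.94 and 6.44 on the IP arrays, an 11.3-fold rise. Ube2v2, a ubiquitin-conjugating enzyme variant, rose 10.5-fold. The other members were Arxes1 (11.6-fold), Api5, an inhibitor of apoptosis (10.6-fold), Vamp4, a SNARE protein (9.94-fold), Ppil4 (9.76-fold), Ttc33 (9.72-fold) and Aard (9.65-fold). Sdad1 (9.07-fold), Fam169a (9.05-fold) and the adhesion protein gene Cadm1 (7.45-fold) completed the 24. The second probe of Ppil4, of Sdad1 and of Api5 had the opposite sign, and the Api5 call ended with the mean of the probes.

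The lower genes moved less. The 14 lower genes chosen in the same way lay between log2 -1.47 and -2.55, with limma adjusted p between 0.00377 and 0.0215. For each, all 4 IP arrays lay below both mock arrays, which again follows largely from the choice. Ly6m, of the Ly6 family of surface proteins, read -3.09 and -2.43 on the mock arrays, -5.08 and -4.75 on the V5 arrays and -5.53 and -5.88 on the GFP arrays. It decreased by 2.55 on the log2 scale (± 0.30 SE, limma adjusted p = 0.00377), to IP values close to the input values of -5.34 and -5.67. The lowest signals well above background were -5.70 on GFP 1 and -6.01 on GFP 2, so the GFP values of Ly6m lay near background. Vegfb, a growth factor of the VEGF family, read 4.39 and 3.27 on the mock arrays and between 1.53 and 1.89 on the IP arrays, below its input values of 3.47 and 3.34. It decreased by 2.12 (± 0.35 SE, adjusted p = 0.00968).

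Myh14, a non-muscle myosin heavy chain, read 5.95 and 5.60 on the mock arrays and between 3.57 and 4.12 on the IP arrays, while input was at 1.71 and 1.59. Dbn1, the actin-binding protein drebrin, read 5.10 and 4.97 on the mock arrays, between 3.06 and 3.56 on the IP arrays, and 0.04 and 0.33 in input. For both genes the mock arrays stood highest, the IP arrays between mock and input. The unconventional myosin gene Myo18a (log2 -1.61) had the same order, and Sorbs3, an adhesion adaptor (-1.48), fell with its IP arrays below input.

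The linker histone genes H1f4 (log2 -1.93 ± 0.28 SE, adjusted p = 0.00616) and H1f3 (-1.72 ± 0.40 SE, adjusted p = 0.0215) also fell, by limma. H1f4 read 0.93 and 0.40 on the mock arrays and between -1.57 and -0.94 on the IP arrays. Histone genes have near-identical copies, so which copy a probe reads is uncertain. The remaining lower genes were Trim55 (-1.97), Cd99 (-1.69), the presynaptic gene Snph (-1.64), the palmitoyltransferase gene Zdhhc1 (-1.62), Morn3 (-1.55) and Git1 (-1.47). The calls of Morn3 and Git1 ended with the normexp background correction, and in the 8-array fit without mock 1 that of H1f3 did not pass (adjusted p = 0.0632).

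**Figure D2:**
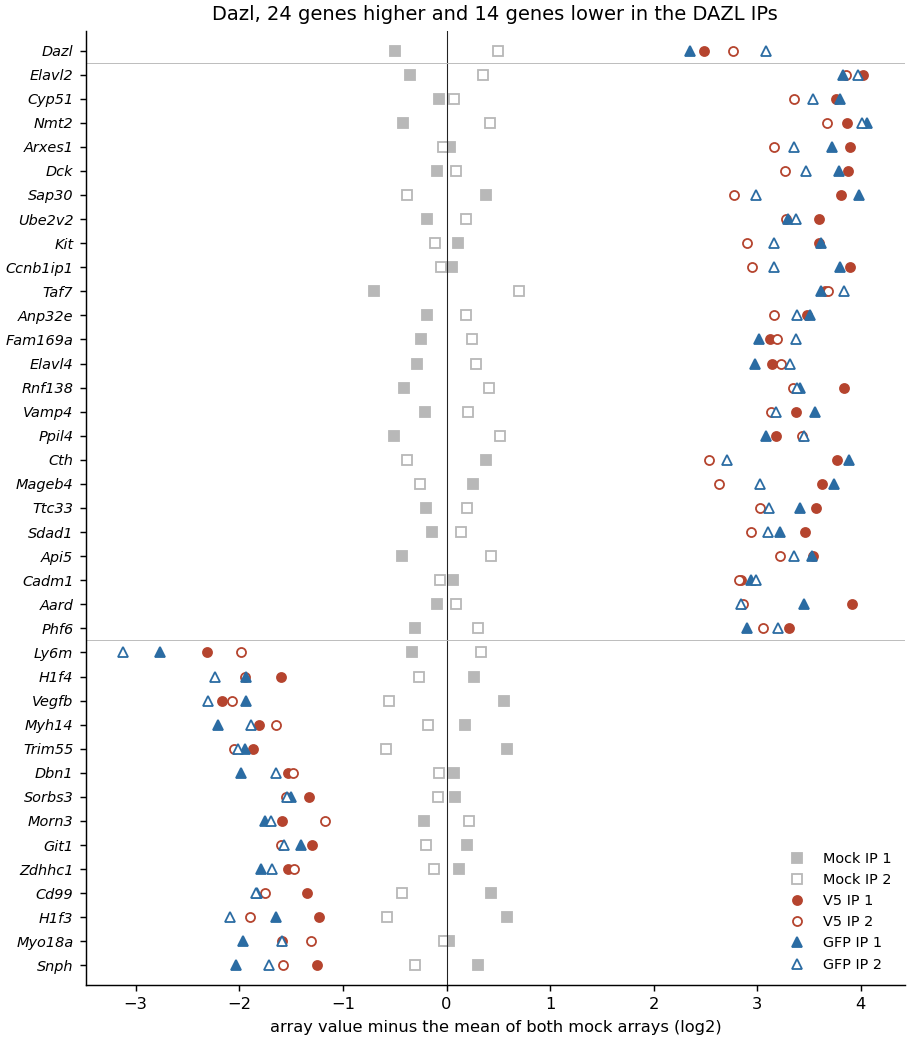
Dazl, the 24 higher and the 14 lower genes are listed from top to bottom, and the horizontal axis is each array's value minus the mean of both mock arrays (log2). Squares are mock, circles V5 and triangles GFP arrays, filled for number 1 and open for number 2. No IP array of these genes overlaps a mock array, and apart from Dazl the genes were chosen by these differences. For Cth, Sap30 and Mageb4 the number 2 arrays of both antibodies lie to the left of number 1.

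Some messages were well above background with the DAZL antibodies and not with IgG. The lowest signal well above background was -5.28 on mock 1, the dimmest array, and -5.82 on mock 2. On the IP arrays it lay between -6.31 and -5.70, and the part of array brightness in detection was not tested. Of the 19020 genes, 16488 were well above background on all 6 arrays, and 2708 of these were called higher and 4317 lower. By every probe, 137 genes were well above background on all 4 IP arrays and on neither mock array, and 95 of them were called higher. Conversely 36 genes were well above background on both mock arrays and on no IP array, and 35 were called lower. Both sets were chosen by the signal on these same arrays, so the direction of their calls follows from the choice. For such genes a fold is a bound, "at least", set against the lowest signal well above background on the dim arrays or the gene's own signal where that is higher.

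Synpr, a synaptic vesicle protein gene, was at least 7.88-fold higher, with -6.46 and -6.47 on the mock arrays and between -2.92 and -2.32 on the IP arrays. Piwil1, the Argonaute family protein MIWI that binds piRNA, was at least 5.45-fold higher. Foxa1, a forkhead factor of endoderm, was at least 4.88-fold higher, and its 4 IP arrays agreed closely (-3.32 to -3.22). Bmpr1b, a BMP receptor (at least 4.12-fold), Rrm2b, a ribonucleotide reductase subunit (at least 4.06-fold), and Nap1l5 (at least 3.93-fold) followed. By limma the adjusted p of these 6 genes lay between 0.00333 and 0.00603, and the calls of all but Synpr ended with normexp. The 6 were chosen by the same values, so their adjusted p is not independent evidence.

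On the mock side, Cacng3, a regulatory subunit of channels, was at least 4.87-fold lower in the IPs. It read -2.57 and -4.79 on the mock arrays and between -8.46 and -6.81 on the IP arrays. Dagla (at least 4.42-fold), Cypt2 (2.82-fold), Pf4, a platelet chemokine (2.81-fold), Ccdc78 (2.80-fold) and the olfactory receptor gene Olfr586 (2.56-fold) were lower by at least the folds given. Dagla stood on mock 1: its mock arrays were at -2.28 and -5.31, and its call ended under 6 other settings, centring and the deposited table among them. The other 5 calls ended with normexp.

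Messages already reported as DAZL targets, or named with DAZL in the study of these cells, were mostly higher. The list holds 18 genes and all were measured: 12 were called higher and 1 lower, against 15.7% and 24.3% of all genes, and 11 were at least 2-fold higher in all 4 within-number differences. Their median difference lay 2.18 above that of all genes (2.49 within number 1, 1.86 within number 2). Since several were named from these samples, their direction is not independent evidence. Of the 12 higher calls 10 were kept in the 8-array fit without mock 1, and 9 members were higher without mock 2.

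Sycp3, an axial element protein of meiotic chromosomes and a reported DAZL target, rose 10.1-fold (log2 3.34 ± 0.55 SE, limma adjusted p = 0.00913). It read -4.31 and -2.39 on the mock arrays, 0.08 and 0.47 on the V5 arrays and -0.76 and 0.16 on the GFP arrays. Input was at -0.0015 and -0.41, so the IP arrays lay around input and the mock arrays far below it. Sycp1, of the central region of the synaptonemal complex, was not called (adjusted p = 0.143). It was well above background on mock 1 (-3.31) and in input, but not on mock 2 or any IP array, so it has no measured difference.

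Ddx4, the germ granule helicase gene also called vasa, rose 2.33-fold (log2 1.22 ± 0.27 SE, adjusted p = 0.0198), from -0.83 and -0.60 on the mock arrays to between 0.24 and 0.73 on the IP arrays, by limma. Tex19.1, expressed in germ cells and embryonic stem cells, rose 3.55-fold, a call that ended without mock 2 (adjusted p = 0.128). Tex14, of intercellular bridges, was not called (log2 -0.49, adjusted p = 0.135). Nanos3, an RNA-binding protein needed for germ cell survival, was the called lower member (log2 -0.85 ± 0.25 SE, adjusted p = 0.0372). Leaving out V5 1, GFP 1 or either mock array ended the Nanos3 call, as did centring, quantile normalization and the deposited table.

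The pluripotency factors on this list rose. Sox2 read 3.11 and 3.26 on the mock arrays, 6.49 and 5.60 on the V5 arrays, 6.35 and 5.70 on the GFP arrays and 3.59 and 3.41 in input, and was 7.21-fold higher (log2 2.85 ± 0.34 SE, limma adjusted p = 0.00399). Sall4 rose 4.45-fold, though the call ended without mock 2 (adjusted p = 0.0527). Of the 3 core subunits of Polycomb repressive complex 2, Suz12 rose 6.44-fold, from 2.47 and 3.11 to between 5.35 and 5.55. Ezh2 (log2 -0.10, adjusted p = 0.8) and Eed (-0.01, adjusted p = 0.965) were not called, and for both the IP and mock arrays overlapped. Tpx2, a spindle protein, was not called either (-0.02, adjusted p = 0.943). With centring, Ezh2, Eed and Tpx2 turned to 0.069, 0.15 and 0.14.

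Apoptosis genes of the list rose as well. The initiator caspase genes Casp9 and Casp2 rose 4.15-fold and 3.14-fold, and Apaf1, the scaffold of the apoptosome, rose 3.07-fold. Casp9 read 2.67 and 2.54 on the mock arrays and between 4.24 and 4.98 on the IP arrays. The call of Casp2 ended without mock 2 (adjusted p = 0.0783).

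Lists of other proteins that act on mRNA were counted next. List counts here and below stand against 15.7% of all genes called higher and 24.3% lower. With centring these shares were 16.3% and 10.6%, with the block 22.0% and 46.6%, and with normexp 12.2% and 12.8%. The all-gene counts also moved when an array was left out, as given above. Of 62 measured mRNA-binding regulators of translation and decay, 36 were called higher and 2 lower, and 26 were at least 2-fold higher in all 4 differences (10.2% of all genes). The list median lay 1.62 above that of all genes, and the 8-array fit without mock 1 kept 28 of the 36. Beside Elavl2 and Elavl4, the splicing regulator gene Rbfox2 rose 7.53-fold, with 1.76 and 1.43 on the mock arrays and between 4.03 and 4.91 on the IP arrays. Pcbp4, a poly(C)-binding protein, read 6.12 and 5.46 on the mock arrays and between 4.46 and 4.64 on the IP arrays, and was lower (log2 -1.26). The lower call of Fxr2, a fragile X family protein (log2 -0.92), ended with centring and when any IP array was left out.

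Of 43 splicing factor genes (19 Hnrnp, 11 Srsf, 9 Sf3, 2 Tra2 and 2 U2af genes), 26 were called higher and 0 lower. The higher calls were 13 of the Hnrnp genes, 9 of the Srsf genes, 2 of the Sf3 genes, which encode parts of the U2 snRNP, and both Tra2 genes. Of the 43, 20 were at least 2-fold higher in all 4 differences. The median lay 1.60 above all genes, 2.06 within number 1 and 1.26 within number 2. With the block 4 members were lower, the 8-array fit without mock 1 kept 20 of the 26 higher calls, and without mock 2 there were 16. Hnrnpll rose 7.55-fold, Srsf10 7.61-fold and Srsf3 9.62-fold. Srsf3 read -0.58 and -0.28 on the mock arrays and between 2.45 and 3.15 on the IP arrays, but 1 of its 2 probes had the opposite sign. For Srsf10 all 4 probes rose.

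Of 34 measured Rbm genes, a family with RNA recognition motifs, 13 were higher and 3 lower (0 with centring, 0 without GFP 1), and 8 were at least 2-fold higher in all 4 differences. Shares of the Rbm genes were 38.2% higher and 8.82% lower, against 15.7% and 24.3% of all genes. Rbm27 (6.06-fold), Rbmx2 (6.85-fold) and Rbmxl2 (4.70-fold) led, the last losing its call without mock 2. The lower calls of Rbm19 and Rbm42 ended with centring. Of the 13, 11 were kept in the 8-array fit without mock 1.

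Of 40 genes of the CCR4-NOT and PAN deadenylases and of mRNA decay, 11 were higher and 5 lower (2 with centring, 1 without GFP 1, 10 with the block), and 8 were at least 2-fold higher in all 4 differences. With the block 18 were higher, and the 8-array fit without mock 1 kept 6 of the 11 higher calls and 2 of the 5 lower. In the fit without the block 27.5% were higher and 12.5% lower, against 15.7% and 24.3% of all genes. The nonsense-mediated decay factor gene Upf3b rose 8.20-fold by its brightest probe, a call that ended with the mean of its 4 probes. Lsm14b, of cytoplasmic RNA granules, rose 4.20-fold and Dcp1a, a decapping cofactor, 4.00-fold. Cnot3, a CCR4-NOT subunit, read 1.77 and 0.99 on the mock arrays and between -0.10 and 0.23 on the IP arrays, and was lower (log2 -1.33). Smg5, of nonsense-mediated decay (-1.04), lost its lower call without V5 1 or GFP 1.

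Initiation factors load ribosomes onto mRNA, and DEAD and DEAH box helicases act in splicing, ribosome assembly and other steps of RNA metabolism. Shares called higher and lower were 17.0% and 32.1% for initiation factors and 17.6% and 37.3% for helicases. All genes were at 15.7% and 24.3%. The brightest of 5 equal groups of genes by input signal was at 18.0% and 35.0%. The median input signal of that group was 3.52, against 3.34 for initiation factors and 1.31 for helicases. Of 53 translation initiation factor genes, 9 were higher and 17 lower (6 with centring, 5 without GFP 1, 26 with the block), and of 51 helicase genes 9 were higher and 19 lower (7 with centring, 8 without GFP 1). The list medians lay 0.03 above and 0.17 below that of all genes, and the first was -0.04 within number 1, -0.02 within number 2 and -0.14 with quantile normalization, while the second turned to 0.04 with the mean of the probes. Kept in the 8-array fit without mock 1 were 6 higher and 5 lower initiation factors, and 6 higher and 7 lower helicases.

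Eif4e, the cap-binding protein, read 1.05 and 1.53 on the mock arrays and between 3.82 and 4.50 on the IP arrays and rose 7.74-fold, with 2 of 3 probes of this sign. Eif5a2 rose 7.47-fold and Eif1b 4.66-fold. Among helicases, the X-linked Ddx3x rose 6.03-fold, Ddx19b 5.02-fold and the nucleolar Ddx21 4.76-fold. Eif6, which keeps ribosomal subunits apart (log2 -1.34), Eif4ebp1, a repressor of Eif4e (-1.06), Ddx24 (-1.29) and Ddx49 (-1.24) fell. The Eif6 call ended with the mean of the probes and that of Eif4ebp1 without GFP 1.

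**Figure D3:**
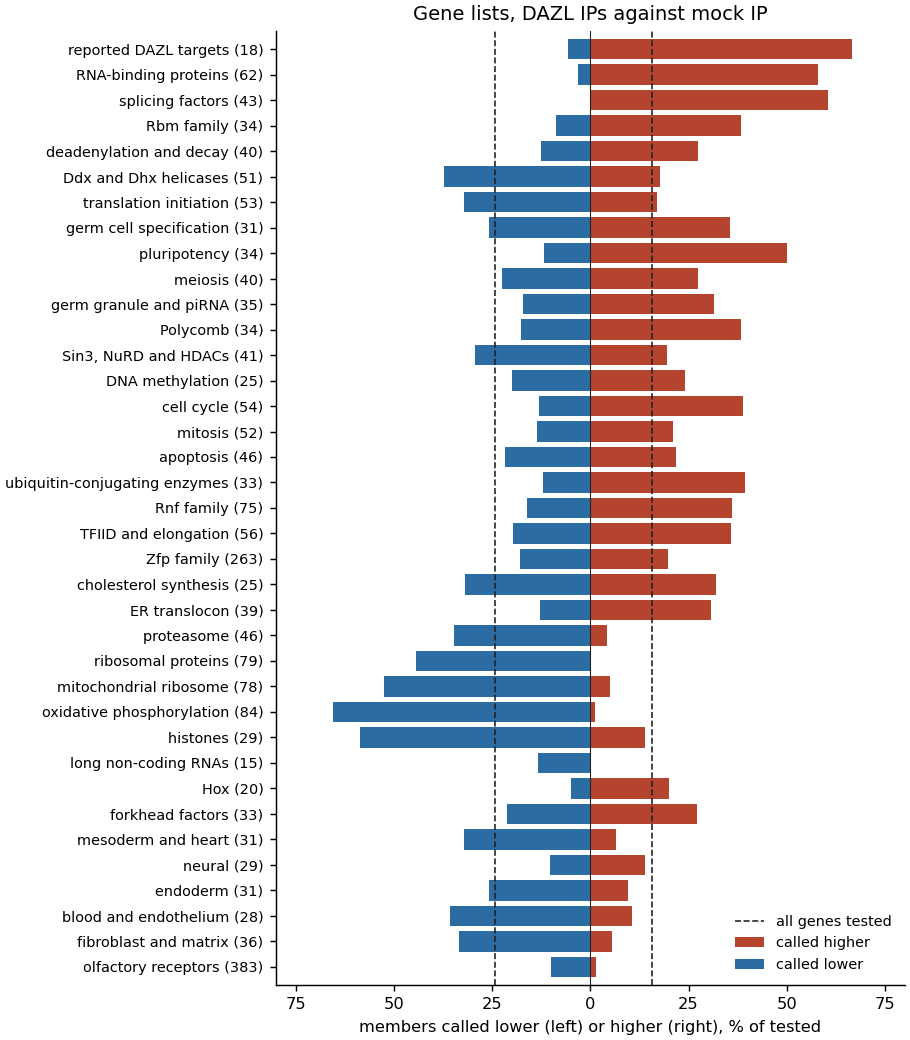
For each gene list, with the number of members tested in parentheses, bars give the percent of members called higher (red, right) and lower (blue, left) in the IPs than in mock IP by limma, and dashed lines give the same for all genes, 15.7% and 24.3%. Reported DAZL targets, RNA-binding regulators and splicing factors have the highest shares of members called higher, and oxidative phosphorylation, histone and mitochondrial ribosome genes the highest shares called lower.

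Pluripotency and germ cell genes were divided. Of 34 measured pluripotency regulators, 17 were higher and 4 lower (0 with centring, 1 without GFP 2, 8 with the block), 14 were at least 2-fold higher in all 4 differences, and the median lay 1.28 above all genes (1.69 within number 1, 0.86 within number 2). Without mock 2, 9 were higher, and the 8-array fit without mock 1 kept 10 of the higher calls and 1 of the lower. Klf5, a Krüppel-like factor, rose 6.29-fold. Gdf3, a TGF-beta family ligand (log2 -1.15), and Mybl2, a Myb family factor (-1.07), were called lower, and both calls ended with centring.

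Of 31 measured genes of primordial germ cell specification and survival, 11 were higher and 8 lower (4 with centring, 4 without GFP 1), and 10 were at least 2-fold higher in all 4 differences. Of these calls, 9 higher and 2 lower were kept in the 8-array fit without mock 1. Besides Elavl2 and Kit, Smad1, the BMP signal transducer, read 1.56 and 1.91 on the mock arrays and between 4.51 and 4.82 on the IP arrays, and rose 7.56-fold. The BMP ligand gene Bmp4 fell (log2 -1.20 ± 0.24 SE, limma adjusted p = 0.0159), with -0.15 and 0.09 on the mock arrays and between -1.38 and -1.07 on the IP arrays. The interferon-induced membrane protein gene Ifitm1 also fell (-1.20). As a whole, 35.5% of the list were higher and 25.8% lower, against 15.7% and 24.3% of all genes.

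The germ cell marker genes did not move as 1 group. Prdm1, which encodes the specification factor BLIMP1, rose 8.66-fold, with -1.98 and -1.53 on the mock arrays and between 1.06 and 1.62 on the IP arrays. Ifitm3, also called fragilis, was called lower (log2 -1.07, limma adjusted p = 0.0224), but not without V5 1 or GFP 1. Dppa3 (log2 1.29, adjusted p = 0.137), Tfap2c (0.88, adjusted p = 0.0811), Dnd1 (0.78, adjusted p = 0.237) and Pou5f1 (-0.72, adjusted p = 0.0988) did not pass in limma. Pou5f1 read 4.28 and 3.45 on the mock arrays and between 2.96 and 3.30 on the IP arrays.

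Of 40 measured genes of the synaptonemal complex, cohesin and recombination, 11 were higher (27.5%, against 15.7% of all genes) and 9 lower (22.5%, against 24.3%; 3 with centring, 2 without GFP 1, 17 with the block), and 6 were at least 2-fold higher in all 4 differences. Without mock 2 there were 7 higher, and the 8-array fit without mock 1 kept 6 and 1. Meioc, needed to stay in meiotic prophase, rose 4.55-fold. Rec8, the meiotic cohesin kleisin, fell (log2 -1.29), from 4.30 and 3.63 to between 2.53 and 2.83. The lower call of Spo11, the meiotic break enzyme (-0.98), ended with centring.

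Of 35 measured germ granule and piRNA pathway genes, 11 were higher and 6 lower (2 with centring, 1 without GFP 1, 12 with the block), and 8 were at least 2-fold higher in all 4 differences. Without mock 2 there were 6 higher, and the 8-array fit without mock 1 kept 7 and 1. Beside Piwil1, Asz1, a mitochondrial membrane protein of the piRNA pathway, rose 7.42-fold, and Tex19.2, a paralogue of Tex19.1, 3.55-fold, the latter not without mock 2. Tarbp2, a partner of Dicer (log2 -1.10), and Henmt1, the piRNA methyltransferase (-1.38), fell. The call of Tarbp2 ended without GFP 1 and that of Henmt1 with normexp.

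Polycomb proteins repress genes through chromatin. Of 34 measured members 13 were higher (38.2%, against 15.7% of all genes) and 6 lower (3 with centring, 0 without GFP 1, 10 with the block), 12 were at least 2-fold higher in all 4 differences, and the 8-array fit without mock 1 kept 12 and 4. Rnf2, the RING1B ligase of Polycomb repressive complex 1, read 1.48 and 2.10 on the mock arrays and between 4.74 and 5.10 on the IP arrays, and rose 8.59-fold. Mtf2, a partner of Polycomb repressive complex 2, rose 6.39-fold, as did all 4 of its probes. Ring1, the paralogue of Rnf2 (log2 -1.06), and Phf1, a homologue of Mtf2 (-1.11), fell, both not without GFP 1, so that paralogues lay on opposite sides.

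Of 41 genes of Sin3, NuRD and the histone deacetylases, 8 were higher and 12 lower (7 with centring, 7 without GFP 1), near the share of all genes. Besides Sap30, Rbbp4, a histone-binding subunit shared by these complexes, rose 3.89-fold and Hdac9 8.49-fold, though 1 of the 2 Hdac9 probes had the opposite sign. Hdac10 fell (log2 -1.32). The 8-array fit without mock 1 kept 6 and 7 of the calls.

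Of 25 measured DNA methylation and demethylation genes, 6 were higher and 5 lower (1 with centring, 0 without GFP 2, 8 with the block). Of the 6 higher, 1 was kept in the 8-array fit without mock 1, as was 1 of the lower; 1 was higher without mock 2 and 10 with the block. Uhrf1, which guides maintenance methylation (3.18-fold), the dioxygenase gene Tet2 (2.58-fold) and the glycosylase gene Smug1 (2.74-fold) were each higher, but not without mock 2. Mbd3, a NuRD subunit (log2 -1.13), lost its lower call with centring. Lig3, a DNA ligase (-1.0), lost it without V5 1, GFP 1 or GFP 2.

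Of 54 cyclin, CDC25, CDK, E2F and RB family genes, 21 were higher and 7 lower (1 with centring, 2 without GFP 2, 15 with the block). These higher and lower shares were 38.9% and 13.0%, against 15.7% and 24.3% of all genes. The median lay 1.10 above all genes, and 16 members were at least 2-fold higher in all 4 differences. Of the calls, 13 higher and 2 lower were kept in the 8-array fit without mock 1. Cks2, a CDK subunit, read 6.15 and 5.41 on the mock arrays, 8.79 and 7.82 on the V5 arrays and 8.70 and 7.85 on the GFP arrays, and rose 5.71-fold. Tfdp1, the partner of E2F, rose 7.73-fold and Ccnd1, cyclin D1, 6.15-fold. Its homologue Ccnd3 fell (log2 -1.10), while the lower call of their kinase gene Cdk4 (-0.86) ended with centring and without any of the 4 IP arrays.

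Of 52 kinetochore, spindle and checkpoint genes, 11 were higher and 7 lower (2 with centring, 3 without GFP 1, 16 with the block), and the 8-array fit without mock 1 kept 7 and 2. With the block 18 were higher. In the fit without it 21.2% were higher and 13.5% lower, against 15.7% and 24.3% of all genes. The kinetochore gene Spc25 rose 6.70-fold, Ska2 4.95-fold and Cenpq 4.23-fold, and the call of Ska2 ended with normexp. Fzr1, an activator of the anaphase-promoting complex (log2 -1.27), and Espl1, separase (-1.26), fell, the latter not with centring.

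Of 46 apoptosis genes, 10 were higher and 10 lower, 21.7% each against 15.7% and 24.3% of all genes (lower: 3 with centring, 3 without GFP 1, 22 with the block), and 9 were at least 2-fold higher in all 4 differences. With the block the lower share was 47.8%, near the 46.6% of all genes in that setting. The list median lay 0.10 above all genes, but 0.02 below with normexp and 0.09 below within number 1. Beside the caspases, Pmaip1, the BH3-only protein NOXA, read 3.22 and 3.43 on the mock arrays and between 6.10 and 6.63 on the IP arrays, and rose 8.45-fold. Xiap, an inhibitor of caspases, rose 6.11-fold, so members with opposite known roles were both higher. The mitochondrial protease gene Htra2 (log2 -1.33) and Bok, of the BCL2 family (-1.19), fell. The 8-array fit without mock 1 kept 7 higher and 3 lower.

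Of 33 ubiquitin-conjugating enzyme genes, 13 were higher and 4 lower (1 with centring, 1 without GFP 1), and the median lay 1.29 above all genes. Within number 1 that was 1.62 and within number 2 0.79, and 7 members were at least 2-fold higher in all 4 differences. The 8-array fit without mock 1 kept 7 of the 13 higher calls and 1 of the 4 lower, and without mock 2 there were 6 higher. Ube2w rose 6.31-fold and Ube2j2 4.46-fold, the latter not without mock 2. Cdc34 fell (log2 -1.28), and Ube2o (-0.80) lost its lower call with centring. Of 75 measured Rnf genes, many of them ubiquitin ligases, 27 were higher and 12 lower (8 with centring, 3 without GFP 1, 23 with the block), and 13 were at least 2-fold higher in all 4 differences. The 8-array fit without mock 1 kept 19 and 6 of these. Rnf227 rose 7.40-fold, and Rnf40 (-1.29) and Rnf123 (-1.31) fell.

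Of 56 genes of TFIID, basal transcription and elongation, 20 were higher and 11 lower (6 with centring, 2 without GFP 1, 20 with the block), 16 were at least 2-fold higher in all 4 differences, and the 8-array fit without mock 1 kept 17 and 4. Tcea1, an elongation factor for RNA polymerase II, rose 11.2-fold, with mock arrays at 0.74 and 1.94 and IP arrays between 4.66 and 5.0. Gtf2e1 rose 6.40-fold, although its second probe had the opposite sign. Ercc2, a TFIIH helicase (log2 -1.19), fell, but not with normexp, and Taf10 (-1.03) fell, but not without GFP 1. Of 263 measured Zfp genes whose number has 3 or 4 digits, 52 were higher and 47 lower (22 with centring, 16 without GFP 1, 106 with the block), near the share of all genes, and the 8-array fit without mock 1 kept 37 and 22. Zfp106, Zfp799 and Zfp516 rose 5.57-fold, 5.78-fold and 4.51-fold, and the lower calls of Zfp936 (-1.92) and Zfp296 (-1.36) ended with centring.

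Of 25 measured cholesterol synthesis genes, 8 were higher and 8 lower (5 with centring, 4 without GFP 1), and 7 were at least 2-fold higher in all 4 differences. Besides Cyp51, Hmgcs1, the synthase before the rate-limiting step, rose 6.97-fold and Hsd17b7 7.22-fold. Hsd17b7 read -0.31 and -0.06 on the mock arrays and between 2.33 and 3.01 on the IP arrays. Tm7sf2, a sterol reductase (log2 -1.50), and Mvk, mevalonate kinase (-1.30), fell, the latter not with centring. Of the calls, 7 higher and 5 lower were kept in the 8-array fit without mock 1.

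Of 39 genes of the ER translocon, TRAP, signal peptidase and oligosaccharyltransferase, 12 were higher and 5 lower (2 with centring, 2 without GFP 1, 9 with the block), and the same number, 12, were at least 2-fold higher in all 4 differences. Sec62 rose 6.56-fold, the TRAP subunit gene Ssr1 5.19-fold and Canx, the chaperone calnexin, 4.63-fold. Canx read 6.52 and 6.38 on the mock arrays and between 8.33 and 8.91 on the IP arrays. Ssr4, another TRAP subunit (log2 -1.29), and Ost4, of the oligosaccharyltransferase (-1.24), fell, the latter not without GFP 1 or mock 2. Of the calls, 10 higher and 1 lower were kept in the 8-array fit without mock 1.

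**Figure D4:**
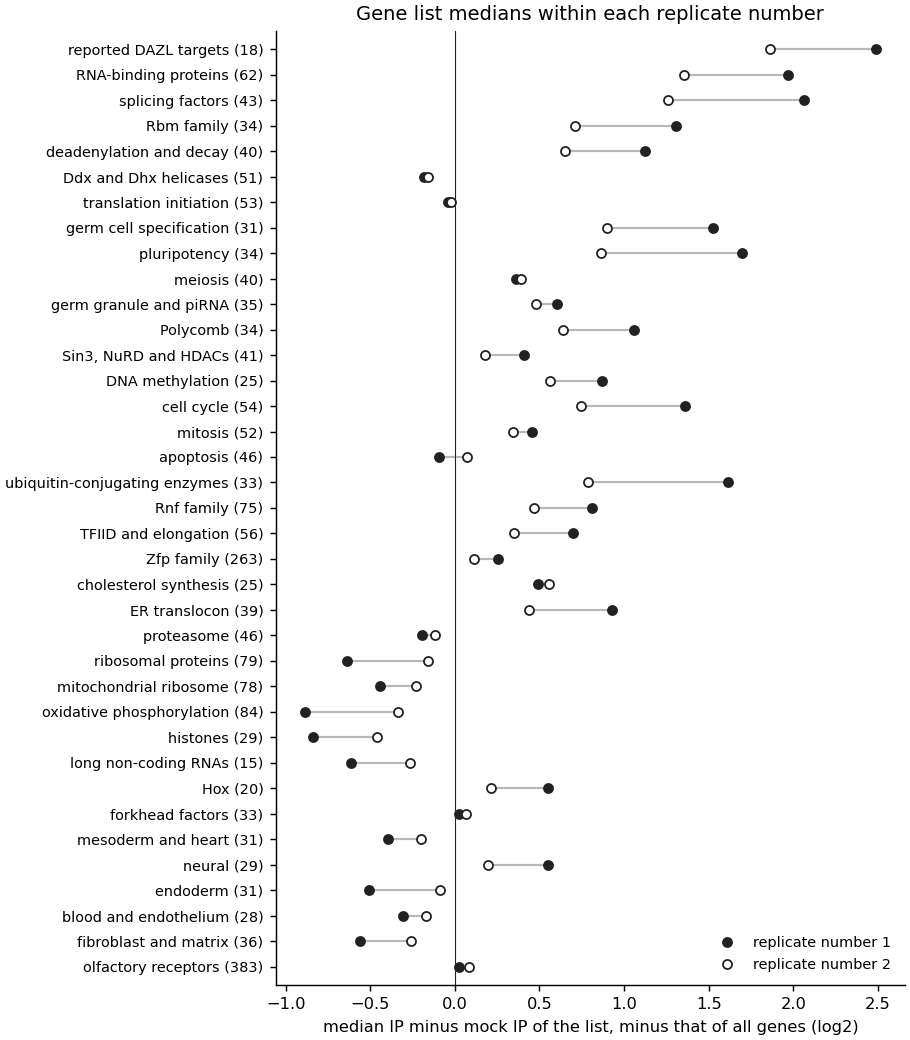
For each gene list, the horizontal axis is the median IP minus mock IP difference of its members minus that of all genes (log2), filled for replicate number 1 and open for number 2. Reported DAZL targets, RNA-binding regulators and splicing factors lie furthest right in both numbers, oxidative phosphorylation and histone genes furthest left, and number 2 lies nearer to 0 for most lists.

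Genes of the ribosome and of mitochondrial respiration had few higher members. Called lower were 65.5% of oxidative phosphorylation, 52.6% of mitochondrial ribosomal and 44.3% of cytosolic ribosomal protein genes, against 24.3% of all genes. For the cytosolic ribosome that order turned with quantile normalization (5.06%, against 22.6% of all genes), without GFP 1 (3.8% against 10.4%), with V5 and GFP averaged (7.59% against 10.8%), without V5 1 (11.4% against 13.4%) and in the 8-array fit without mock 1 (7.59% against 8.05%). Of 79 cytosolic ribosomal protein genes, 0 were higher and 35 lower by limma, 0 were at least 2-fold lower in all 4 differences, and 43 were at least 2-fold lower with both antibodies within number 1 alone and 0 within number 2. The lower count was 75 with the block, 9 with centring, 4 with quantile normalization and 3 without GFP 1, and the 8-array fit without mock 1 kept 6. The list median lay 0.39 below that of all genes, and 0.08 below it with quantile normalization. Rpsa fell (log2 -1.15), at 8.05 and 7.35 on the mock arrays and between 6.49 and 6.69 on the IP arrays. Its call ended with the mean of the probes. Ribosomal protein genes have many processed copies, so which copy a probe reads is uncertain.

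Of 84 nuclear genes of oxidative phosphorylation, 1 was higher and 55 were lower, and the median lay 0.61 below all genes (0.89 below within number 1). The lower count was 35 with centring and 30 without GFP 1, the 8-array fit without mock 1 kept 25, and 2 members were at least 2-fold lower in all 4 differences (1.73% of all genes). Atp5e, the epsilon subunit of ATP synthase, read 7.38 and 6.95 on the mock arrays and between 5.06 and 5.91 on the IP arrays, and fell (log2 -1.61 ± 0.29 SE, limma adjusted p = 0.0125). Uqcrh, of complex III, fell (-1.48). The higher member was Ndufc2, of complex I, which rose 4.87-fold but not without mock 2.

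Of 78 mitochondrial ribosomal protein genes, 4 were higher and 41 lower (20 with centring, 12 without GFP 1), the 8-array fit without mock 1 kept 2 and 16, without mock 2 there was 1 higher and with the block there were 7. Mrpl38 (log2 -1.28) and Mrpl55 (-1.36) fell. Mrpl50 rose 6.01-fold, from 1.11 and 1.61 on the mock arrays to between 3.67 and 4.13, and Mrps14 4.26-fold, the latter not without mock 2, while Mrpl3 (2.48-fold) lost its call without V5 1, GFP 1 or mock 2. Of 46 proteasome genes, 2 were higher and 16 lower (6 with centring, 4 without GFP 1, 26 with the block), and the 8-array fit without mock 1 kept 1 and 4. Higher and lower shares of the proteasome genes were 4.35% and 34.8%, against 15.7% and 24.3% of all genes. In the brightest of 5 equal groups of genes by input signal the shares were 18.0% and 35.0%. The median input signal was 3.87 for the proteasome list and 3.52 for that group. Psma8, a subunit of the testis proteasome, rose 7.68-fold, and Psmd11 2.43-fold, not without mock 2 or GFP 1. Psmb5, a catalytic subunit, fell (-1.41), while the lower Psmf1 (-1.17) turned to 0.10 with the mean of its probes.

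Of 29 measured replication-dependent histone genes, whose mRNAs lack poly(A) tails, 4 were higher and 17 lower (9 with centring), and 7 were at least 2-fold lower in all 4 differences, against 1.73% of all genes. The median lay 0.64 below all genes, the 8-array fit without mock 1 kept 0 higher and 4 lower, and without mock 2 there were 2 higher. Besides H1f4 and H1f3 lower, the higher H3c4 (3.13-fold) and H3c14 (3.14-fold) lost their calls without mock 2, and H2ac19 (3.46-fold) with normexp. Of 15 measured long non-coding RNAs, 0 were higher and 2 lower. H19, an imprinted transcript, fell (log2 -1.31 ± 0.25 SE, limma adjusted p = 0.0146), from 6.07 and 5.89 on the mock arrays to between 4.40 and 4.81. Tsix, which runs antisense to Xist, was well above background on mock 2 alone of the 6 arrays and at least 1.44-fold lower in the IPs, and its call ended with centring. With the block, 13 of the 15 were lower.

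Marker genes of other lineages, which a differentiating culture can hold, were measured in all groups. In input, 30 of 31 mesoderm and heart genes, 28 of 29 neural, 30 of 31 endoderm, 27 of 28 blood and endothelial and 36 of 36 fibroblast and matrix genes were well above background on both arrays. These counts cover only members that passed the filter on dim probes, out of 39, 36, 35, 34 and 36 on the array. Input signal alone can pass that filter, and 18545 of all 19020 genes tested were well above background on both input arrays. The counts therefore cannot tell whether such cells were present. Fewer cells of a type and less RNA per cell cannot be told apart on these arrays. The mean log2 signal of the fibroblast and matrix list lay between -0.81 and -0.71 on the IP arrays, at -0.35 and 0.19 on the mock arrays and between -0.43 and -0.29 in input. That of the mesoderm and heart list lay between -2.54 and -2.34, between -2.17 and -1.80, and between -2.41 and -2.29. The part of these cells in the differences between IP and mock IP was not tested.

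All genes were called higher in 15.7% and lower in 24.3%. Of the mesoderm and heart genes 2 were higher and 10 lower (6 with centring), of the neural genes 4 and 3 (3), of the endoderm genes 3 and 8 (3), of the blood and endothelial genes 3 and 10 (4), and of the fibroblast and matrix genes 2 and 12 (5). In that order, the 8-array fit without mock 1 kept 1, 2, 2, 1 and 1 of the higher calls and 1, 3, 3, 3 and 3 of the lower calls. Without GFP 1, 2 blood and endothelial genes were lower, and without mock 2, 1 endoderm gene was higher. With the block the lower counts were 20, 9, 19, 17 and 25 and the higher counts 4, 9, 3, 5 and 2. In the fit without the block the higher shares lay between 5.56% and 13.8%, and the lower shares between 10.3% and 35.7%. The medians of these lists lay between 0.45 below and 0.36 above that of all genes.

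Single members still rose several-fold. Timp3, an inhibitor of metalloproteinases, read 0.91 and 1.21 on the mock arrays and between 3.56 and 3.89 on the IP arrays, and rose 6.47-fold. Hhex, a homeobox factor of endoderm and endothelium (4.53-fold), and Pecam1, an adhesion protein of endothelium that primordial germ cells also carry (4.91-fold), were higher, but not without mock 2. The neural adhesion gene Ncam1 rose 4.76-fold by its brightest probe, with 4 of 6 probes of this sign, and Map2, of dendrites, 3.84-fold, not with normexp. Col3a1, a fibrillar collagen (log2 -1.43), the atrial genes Myl7 (-1.47) and Nppa (-1.27), and the neural intermediate filament gene Nes (-1.33) fell. Apoe (-1.42) lost its lower call with centring.

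Hox and forkhead genes encode transcription factors of development. Of 20 measured Hox genes 4 were higher and 1 lower (15.7% and 24.3% of all genes were), the 8-array fit without mock 1 kept 3 and 1, and with normexp none was called. Hoxa10 was not well above background on the mock arrays and was at least 2.02-fold higher. Hoxd13 rose 3.91-fold, Hoxd9 rose 2.70-fold but not without mock 2, and Hoxc9 fell (log2 -1.32). Of 33 measured forkhead genes 9 were higher (27.3%) and 7 lower (21.2%, against 24.3% of all genes; 3 with centring, 3 without GFP 1, 14 with the block), the 8-array fit without mock 1 kept 5 and 3, and besides Foxa1 the genes Foxo1 and Foxn2 rose 3.96-fold and 3.91-fold. Of 383 measured olfactory and vomeronasal receptor genes, which these cells are not known to use, 6 were higher and 38 lower (15 with centring, 19 without GFP 1, 127 with the block), and with normexp 1 and 0. The 8-array fit without mock 1 kept 3 and 9, with the block 13 were higher, and without mock 2 there were 2 higher. The lower share of these receptor genes was 9.92%, and 33.2% with the block, against 24.3% and 46.6% of all genes. Olfr701 was at least 3.0-fold higher, with its mock arrays below background.

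The antibodies were also set against each other. In V5 minus GFP, limma called 0 of 19020 genes, with a smallest adjusted p of 0.223 and 141 genes at an unadjusted p under 0.05. With the replicate number as a block 1 gene was called, named AK037068 in the file: V5 1 and V5 2 were at -3.26 and -4.22, and the mock and GFP arrays, where it was not well above background, between -8.12 and -7.33, so that V5 was at least 4.34-fold above GFP (adjusted p = 0.0476). Leaving out V5 1 or GFP 1 gave 10 calls each, leaving out V5 2 gave 27 and leaving out GFP 2 gave 26; the lone array of an antibody is then assumed to vary like the other groups. A difference that misses the threshold with 2 arrays each does not show that the antibodies act alike. The IP minus mock IP differences of each antibody share the mock arrays, so their likeness is not given as a result.

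The share of genes called higher or lower differed by their input signal on the array. When genes were put in 5 equal groups by their input signal, 7.6% of the dimmest group, 11.1% of the next, then 19.7%, 22.1% and, of the brightest, 18.0% were called higher. The share called lower was larger at each step, at 13.6%, 20.5%, 25.5%, 27.1% and 35.0%. Between 1.1% and 2.18% of each group reached 2-fold lower in all 4 differences, and between 4.34% (the dimmest) and 14.2% (group 4) reached 2-fold higher. The part of signal level in these shares was not tested.

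**Figure D5:**
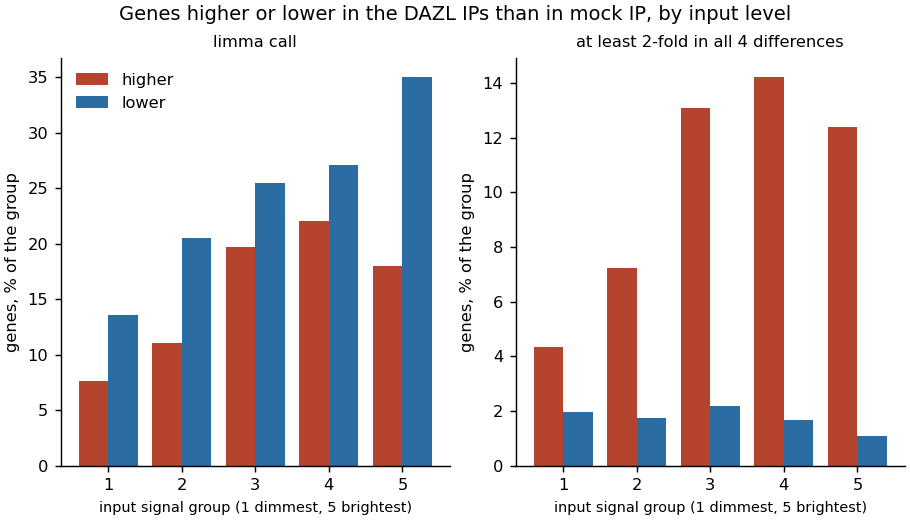
Genes are put in 5 groups of 3804 by their mean input signal, from the dimmest (1) to the brightest (5), and bars give the percent of each group that was higher (red) or lower (blue) in the IPs than in mock IP. Left, limma calls: lower calls grow from 13.6% to 35.0%; right, genes at least 2-fold apart in all 4 within-number differences, where higher genes outnumber lower ones in all 5 groups.

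Probes of a gene did not always move together. Among 6537 genes with more than 1 kept probe, all probes had the same sign in 72.4%. The share was 73.2% of 1603 such genes called higher and 88.3% of 1356 called lower.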

How the data were processed

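RNA of the 6 IP and mock arrays, and of 2 input arrays used for detection, levels and some alternatives, was measured on one-colour Agilent mouse arrays. Agilent Feature Extraction 9.1.3.1 read the scans, per the file headers, and the authors deposited linear spot intensities for each array, background-subtracted, with a quality score and flags. The authors also deposited a table of median-normalized signal values of the whole series, whose 45018 entries matched 1 spot each by their deposited score (tolerance 1e-05). Depth does not apply to arrays, and their number limits the precision. Aligner and genome build do not apply, and the labels name no software.

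The deposited processed intensities were put on a log2 scale, and from each array its 75th percentile over gene probes was subtracted. Repeat spots were averaged after dropping outlier spots (38 probes with none left on an array were left out). Probes stayed in if both arrays of any 1 study group had them well above background, which left 28078 of 41174. The brightest kept probe over 8 arrays stood for its gene. Symbols were updated with RefSeq's GRCm38.p6 gene table where it held the accession or name.

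The test was limma 3.58.1 under R 4.3.3 (lmFit, eBayes, two-sided; 1 coefficient per group, the mean of V5 and GFP minus mock) and called at a Benjamini-Hochberg adjusted p under 0.05 over all genes. The fit was also run on simulated data with known changes, with noise drawn independently for each array. That simulation left out the likeness of arrays of 1 replicate number, so it does not check the p-values against it. The replicate numbers pair the arrays by slide, per the file headers: deviations from group means correlated with 0.78 (V5 and GFP), 0.51 (V5 and mock) and 0.52 (GFP and mock). Blocked counts are given for all genes and for some of the lists only. Lists without a blocked count also moved. With the block the germ cell list had 16 higher and 10 lower, and oxidative phosphorylation had 71 lower. The p-values of single genes in IP minus mock IP are from the limma fit without the block.

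Named genes were Dazl, the 24 higher and 14 lower called genes well above background on all 6 arrays, ranked by the weakest of the 4 within-number differences (clone names left out), the 6 with the highest bound among genes detected on 1 side alone, and from each list up to 3 higher and 2 lower called members and all reported targets; a few of these are not reported here. The members and lists were chosen with earlier results of these data known. Alternatives were the block, all 8 arrays, IP arrays as 1 group or averaged, quantile normalization, centring, normexp (offset 50), the deposited table as log2 of the signal plus 0.1, probe filters, the mean of probes, and leaving out each array.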

Additional observations from a re-analysis of the deposited data

How the results depend on the processing

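The higher count ranged from 2298 to 4181 under the other settings run on all 6 or 8 arrays. The lower count was 8855 with the replicate block, 2053 with V5 and GFP averaged, 2014 with centring, 2443 with normexp, 2143 with the deposited table and 2007 with no filter on dim probes. Leaving out 1 array gave between 0 and 3156 higher and between 0 and 4119 lower, both lowest without mock 1; in the 8-array fits, chosen after seeing the data, 1981 and 1532 remained without mock 1, and 3124 and 5959 without mock 2. Genes that reached 2-fold higher in all 4 differences numbered 1948, against 3349 on number 1 alone. In "genes at least 2-fold lower in all 4 within-number differences" the count was 329, against 4964 on number 1 alone, 79 with normexp, 43 with the deposited table and 96 with centring. V5 against GFP gave 1 call with the block and between 0 and 27 with 1 array left out.

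The Dazl difference lay between 2.18 and 3.16 with 1 array left out, and did not pass without mock 1 (adjusted p = 0.0892). Over all genes, the mean of the probes turned the sign of 24 higher and 50 lower calls, and normexp that of 10 and 2. Among named genes, Psmf1, called lower, turned with the mean of the probes (0.10). Sycp1 (-2.09), which is well above background on no IP array, turned without mock 1 (0.045, with 1 array left out down to -4.22). Ezh2, Eed and Tpx2 lay near 0. Ezh2 turned with centring (0.069), the deposited table (0.098) or with 1 array left out (between -0.46 and 0.27). Eed turned with centring (0.15), the deposited table (0.17) and with 1 array left out (between -0.16 and 0.13), and Tpx2 with centring (0.14), the deposited table (0.16) or with 1 array left out (between -0.066 and 0.022). Of 207 called genes that the naming rule chose, every one lost the call without mock 1 in the fit without input. Some also lost it in the 8-array fit without mock 1, without mock 2 or without any single IP array. With all arrays kept, 45 lost the call with normexp and 28 with no filter. Averaging ended 22 of these calls, centring 20 and the deposited values of the authors 17. The block and all 8 arrays ended none. The cause was not tested. Signal near background limits the dim genes, and 2 arrays a group limit every value.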
